A study of Mus musculus with 10 samples.

Results

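Primitive streak and nascent mesoderm factors were followed as a set of 10 genes, T (Brachyury), Eomes, Mixl1, Evx1, Lhx1, Gsc, Mesp1, Mesp2, Msgn1 and Tbx6, out of 38924 genes counted. They were picked by name, with earlier results of these data known, and every one of them had a row in all 10 count files. RNA was sequenced from sorted cells of a single mESC line, Foxa2-hCD4, whose Foxa2 locus also drives a truncated human CD4, a surface protein by which Foxa2-expressing cells can be sorted. All cells were taken as embryoid bodies at day 5 of differentiation, and every group carries this altered Foxa2 locus. Whether the change affects Foxa2 itself is not given in the sources used here. Cardiac mesoderm (CM), sorted for Kdr and Pdgfra, was divided by hCD4 into Foxa2+ CM (n = 3) and Foxa2- CM (n = 3). Those cultures received 8 ng/ml of Activin A together with BMP4 and VEGF, and they also supplied the haematopoietic mesoderm, labelled Flk1+ high after the other name of Kdr (n = 2). Foxa2+ endoderm (n = 2) came from separate cultures given Activin A at 75 ng/ml, so that induction and sort cannot be told apart in any comparison with endoderm. Nothing in the labels says that replicates were separate differentiations, and p-values then measure the spread between these samples, which may be technical.

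During gastrulation, Nodal and Wnt signals switch on a shared programme in the primitive streak, the furrow through which epiblast cells leave to form mesoderm and definitive endoderm. Eomes and Mixl1 act in this early mesendoderm, T is needed for mesoderm formation and posterior growth, and Evx1 marks the more posterior streak. Gsc and Lhx1 belong to the anterior streak and the organizer, from which anterior mesendoderm and head signals arise. Mesp1 is the early marker of cells bound for the heart, Mesp2 sets the borders of somites, and Msgn1 and Tbx6 maintain presomitic mesoderm. T, Eomes and Tbx6 are T-box proteins, which bind DNA through a shared domain.

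On mm10, T (ENSMUSG00000062327.4) lies on the plus strand of chromosome 17 from 8434423 to 8442496. Mesp1 (ENSMUSG00000030544.5) covers 79792241 to 79793788 on the minus strand of chromosome 7, and Mesp2 (ENSMUSG00000030543.9) covers 79810727 to 79813439 on its plus strand. Their starts are 16939 bases apart and point away from each other. Tbx6 (ENSMUSG00000030699.10) is on the same chromosome, from 126781483 to 126785560 on the plus strand. Chromosome 12 holds Msgn1 (ENSMUSG00000047002.1), from 11208360 to 11208972, and Gsc (ENSMUSG00000021095.4), from 104471209 to 104473330, both on the minus strand. Eomes (ENSMUSG00000032446.8) spans 118478212 to 118486132 on the plus strand of chromosome 9 and Evx1 (ENSMUSG00000005503.8) 52313498 to 52318378 on the plus strand of chromosome 6. Mixl1 (ENSMUSG00000026497.7) runs from 180693043 to 180697034 on chromosome 1 and Lhx1 (ENSMUSG00000018698.9) from 84518284 to 84525535 on chromosome 11, both on the minus strand. Evx1 shares 1335 bases with the antisense gene Evx1os, and Eomes shares 574 bases with the antisense gene Gm33460. Whether the counting used strand is not given in the sources used here, so reads of these pairs cannot be told apart.

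Promoter sequence is shown for the genes whose levels separated the CM groups most often or with the lowest counts (Mesp1, Mesp2, Tbx6, Msgn1 and Evx1), and for T, the founder of the T-box family. The sequences are RefSeq's on GRCm38.p6, the build of mm10, which held an entry for 9 of the 10 genes, and each ends at the base before the start of the gene in RefSeq or GENCODE, whichever is further upstream. Capitals mark the T-box core motif AGGTGT and the TCF/LEF motif, which is CTTTG followed by AA, AT, TA or TT, both searched on either strand. TCF/LEF proteins carry the Wnt signal to DNA. The windows shown are chr17:8434173-8434422 (plus strand) for T, chr6:52313248-52313497 (plus) for Evx1, chr7:79793789-79793840 (minus) for Mesp1, chr7:79810477-79810726 (plus) for Mesp2, chr12:11208973-11209198 (minus) for Msgn1 and chr7:126781233-126781482 (plus) for Tbx6.
T: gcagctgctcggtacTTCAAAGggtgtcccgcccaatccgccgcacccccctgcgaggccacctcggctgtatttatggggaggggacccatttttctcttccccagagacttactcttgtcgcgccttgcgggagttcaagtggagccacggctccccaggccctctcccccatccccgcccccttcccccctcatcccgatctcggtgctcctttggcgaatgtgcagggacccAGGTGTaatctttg
Evx1: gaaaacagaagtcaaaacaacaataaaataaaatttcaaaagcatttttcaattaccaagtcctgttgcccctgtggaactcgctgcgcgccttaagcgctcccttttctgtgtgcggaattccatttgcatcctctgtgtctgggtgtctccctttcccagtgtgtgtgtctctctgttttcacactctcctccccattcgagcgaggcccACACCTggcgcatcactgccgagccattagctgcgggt
Mesp1: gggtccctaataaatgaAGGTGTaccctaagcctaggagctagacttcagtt
Mesp2: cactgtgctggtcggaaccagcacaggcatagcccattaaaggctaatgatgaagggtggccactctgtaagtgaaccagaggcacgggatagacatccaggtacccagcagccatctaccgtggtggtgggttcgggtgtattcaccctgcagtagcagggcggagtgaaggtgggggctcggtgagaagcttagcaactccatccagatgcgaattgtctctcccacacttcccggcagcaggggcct
Msgn1: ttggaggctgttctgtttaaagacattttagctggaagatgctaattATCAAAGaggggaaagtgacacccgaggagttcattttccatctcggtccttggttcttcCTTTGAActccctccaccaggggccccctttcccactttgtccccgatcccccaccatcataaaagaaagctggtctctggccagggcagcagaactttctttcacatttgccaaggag
Tbx6: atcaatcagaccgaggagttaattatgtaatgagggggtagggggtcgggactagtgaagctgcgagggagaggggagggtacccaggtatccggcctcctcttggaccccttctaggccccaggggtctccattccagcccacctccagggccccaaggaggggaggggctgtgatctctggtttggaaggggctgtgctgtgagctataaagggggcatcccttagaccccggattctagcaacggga

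Over the full 250 bases before the RefSeq start, the T-box motif was found in 3 of 9 genes, T, Evx1 and Mesp1, and in 11.8% of 32851 mouse promoters of the same length. Counted from the start, it lies at -14 to -9 in T and at -233 to -228 in Mesp1. A TCF/LEF motif was found in 3 of 9 genes, T, Mesp1 and Msgn1, against 14.8% of all promoters. Mesp1 and Msgn1 hold 2 each, and those of Mesp1 lie in the stretch nearer the RefSeq start that GENCODE counts as part of the gene and that is not printed. No match overlapped another. Mesp2 and Tbx6 held neither motif in this window. The Nodal-response motif AATCCACA, bound by FOXH1, was in none of the 9 and in 0.718% of all promoters.

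Total counts on genes ran from 10926284 to 17470126 per sample, and 3 counts, the least taken as detectable, stand at 0.169 to 0.279 CPM. CPM is the count scaled to the TMM-normalized library size. The 10 cardiac mesoderm markers summed to 1225 to 1553 CPM in the CM samples, 814 and 1051 CPM in Flk1+ high and 246 and 407 CPM in endoderm. Kdr and Pdgfra, on which CM was sorted, are among these 10, so the sum in part restates the sort. Kdr alone, which also set the Flk1+ high gate, stood at 554 and 592 CPM there. It stood at 353 to 440 CPM in CM and at 6.24 and 9.94 CPM in endoderm. All 8 endoderm markers reached 10 CPM in endoderm, against 3 to 5 elsewhere. All 9 haemato-endothelial markers did so in Flk1+ high, but so did 5 to 8 of them in CM. Foxa2, the gene of the sort, was at 20.01, 16.0 and 3.49 CPM in Foxa2+ CM and at 2.54, 0.872 and 0.902 CPM in Foxa2- CM, so that Foxa2+ CM 3 lay close to Foxa2- CM 1. The Flk1+ high samples stood far apart from each other, at a chi-square of 21.5 per degree of freedom, against 3.72 to 13.2 within the other groups. Both CM samples numbered 3 had the highest sum of haemato-endothelial markers in their group. The 9 markers of that list, none at 0 in any sample, summed to 480.8, 493 and 624 CPM in Foxa2+ CM and to 370.5, 372 and 601 CPM in Foxa2- CM. Not every marker followed the sum in the samples numbered 3. Etv2 was lowest in both (97.5 and 91.0 CPM), and Lmo2 was lowest in Foxa2+ CM 3 (87.9 CPM). Calls of the factors and of the gene lists are also given without the samples numbered 3. In bulk samples fewer cells of a type and less RNA per cell cannot be told apart.

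**Figure D1:**
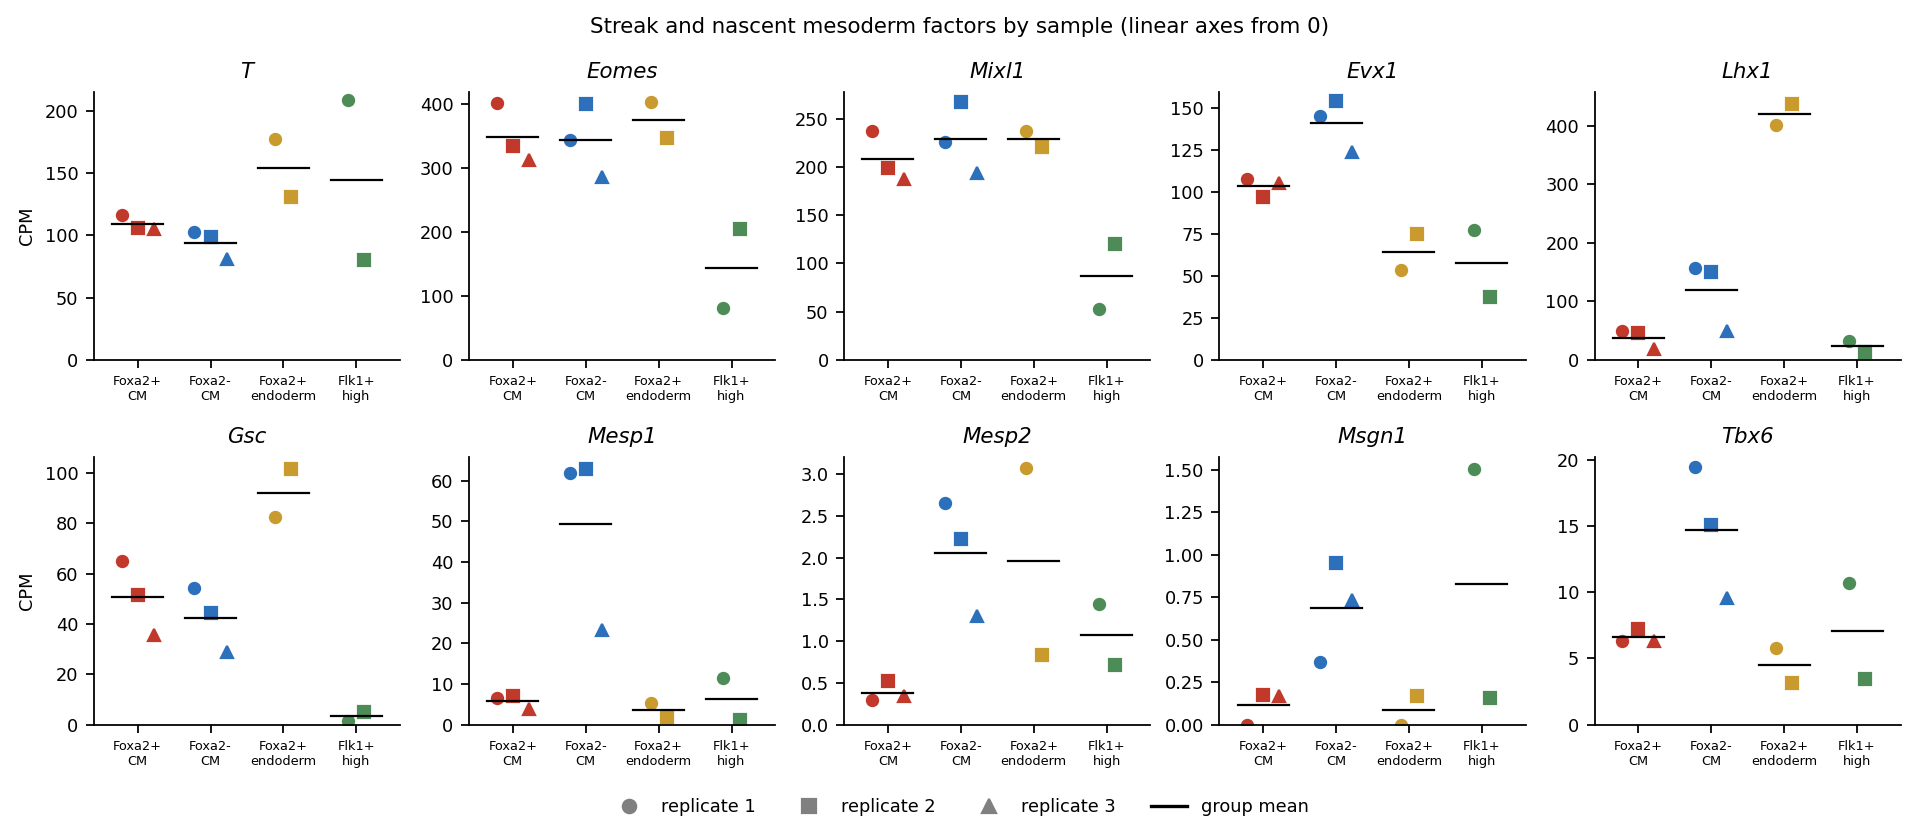
CPM of the 10 factors in each sample, one panel per gene on a linear axis from 0, with the group mean as a line and the symbol giving the replicate number. Mesp1 in the 3 Foxa2- CM samples (23.2 to 62.9 CPM) sits above every other sample, Lhx1 and Gsc are highest in endoderm, and Gsc is lowest in Flk1+ high.

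T, Eomes and Mixl1, the factors of the early streak, were abundant in CM, and their CPM differed little between Foxa2+ and Foxa2- cells. Eomes stood at 401, 334 and 312 CPM in Foxa2+ CM and at 344.5, 401 and 286 CPM in Foxa2- CM. In endoderm it stood at 403 and 347 CPM and in Flk1+ high at 80.9 and 205 CPM. The CM and endoderm samples covered the same range, and both Flk1+ high samples lay below it. Mixl1 followed the same order, at 237, 198 and 188 CPM in Foxa2+ CM, at 226, 267 and 194 CPM in Foxa2- CM, at 237 and 221 CPM in endoderm and at 53.0 and 120.2 CPM in Flk1+ high. T was at 117, 106 and 105 CPM in Foxa2+ CM, at 103, 98.5 and 81.0 CPM in Foxa2- CM and at 178 and 131 CPM in endoderm. In the Flk1+ high pair it stood at 209 and 80.2 CPM, which holds the highest and the lowest T values of all 10 samples. The same pair was split the other way for Eomes and Mixl1, both lower in the sample with more T.

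Evx1, the posterior streak homeobox gene, was at 107.5, 97.1 and 105 CPM in Foxa2+ CM and at the higher values of 145, 154 and 124 CPM in Foxa2- CM. It stood at 53.4 and 74.95 CPM in endoderm and at 77.4 and 37.6 CPM in Flk1+ high. The 3 Foxa2- CM samples were the highest of all, and endoderm and Flk1+ high overlapped.

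The anterior streak genes were ordered differently. Lhx1, a LIM homeobox factor of the organizer, was at 49.0, 46.0 and 18.8 CPM in Foxa2+ CM and at 158, 150.0 and 49.4 CPM in Foxa2- CM. Endoderm had 401.5 and 437 CPM, and Flk1+ high 32.1 and 14.2 CPM. Endoderm stood above all other samples, and in each CM group the sample numbered 3 was the lowest. Gsc (goosecoid), a homeobox gene of the organizer, was at 65.1, 51.4 and 35.6 CPM in Foxa2+ CM and at 54.2, 44.4 and 28.8 CPM in Foxa2- CM. It reached 82.4 and 102 CPM in endoderm and only 1.57 and 5.04 CPM in Flk1+ high. The CM groups overlapped for Gsc, and the lowest Gsc value outside Flk1+ high was 28.8 CPM.

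Nascent and presomitic mesoderm factors were scarcer. Mesp1 stood at 6.43, 7.05 and 3.72 CPM in Foxa2+ CM against 61.9, 62.9 and 23.2 CPM in Foxa2- CM. It was at 5.40 and 1.92 CPM in endoderm and at 11.4 and 1.10 CPM in Flk1+ high. Every Foxa2- CM sample exceeded all others, and the remaining 3 groups overlapped. Tbx6 was at 6.28, 7.23 and 6.31 CPM in Foxa2+ CM, at 19.4, 15.1 and 9.53 CPM in Foxa2- CM, at 5.77 and 3.18 CPM in endoderm and at 10.7 and 3.46 CPM in Flk1+ high. Again the CM groups did not overlap, and the Foxa2- CM sample numbered 3 was nearest to Foxa2+ CM. Mesp2 rested on 4, 9 and 6 counts in Foxa2+ CM, 43, 28 and 23 in Foxa2- CM, 33 and 10 in endoderm and 23 and 9 in Flk1+ high. Msgn1 had 0, 3 and 3 counts in Foxa2+ CM, 6, 12 and 13 in Foxa2- CM, 0 and 2 in endoderm and 24 and 2 in Flk1+ high. Msgn1 was thus at or under the floor of 3 counts in all Foxa2+ CM and endoderm samples, and its highest value belonged to a single Flk1+ high library.

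Per kilobase of exon, the scale on which genes can be set beside each other, the set was led by Mixl1 and Eomes in CM. Their levels were 90.6 ± 11.3 and 84.0 ± 11.2 CPM per kb in Foxa2+ CM and 99.8 ± 16.0 and 82.7 ± 13.9 CPM per kb in Foxa2- CM (SD, n = 3). T stood at 47.2 ± 2.78 and 40.7 ± 5.02 CPM per kb and, in Foxa2- CM, below Evx1 in all 3 samples. Mixl1 stood above Eomes in each of the 6 CM samples, although the ranges of the pair overlapped across samples in both groups. In endoderm Lhx1 led at 103 ± 6.15 CPM per kb (SD, n = 2), next to Mixl1 at 99.8 ± 5.14 and Eomes at 90.2 ± 9.65, and the ranges of these 3 genes lay close together. At the other end, Mesp2 stayed between 0.197 and 1.06 CPM per kb as a group mean and Msgn1 between 0.136 and 1.355 CPM per kb.

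**Figure D2:**
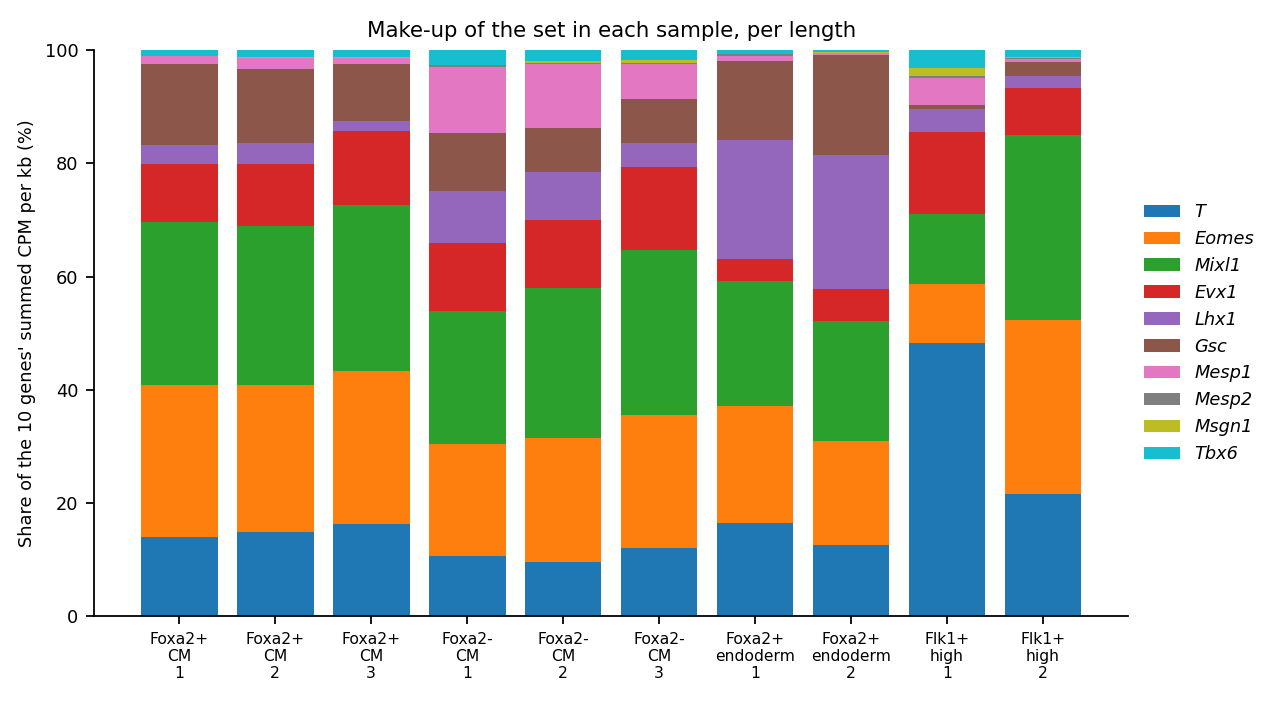
Share of each factor in the summed CPM per kb of the 10 genes, in percent, with 1 bar per sample. Mesp1, Mesp2, Msgn1 and Tbx6 together make 2.41 to 3.27% of the sum in Foxa2+ CM and 8.69 to 14.6% in Foxa2- CM, Lhx1 makes 21.05 and 23.65% in endoderm, and T makes 48.3 and 21.6% in the Flk1+ high samples.

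The summed level of the 10 genes was 279 to 360 CPM per kb in Foxa2+ CM, 291 to 441 in Foxa2- CM, 454 and 468 in endoderm and 187 and 160 in Flk1+ high. Within that sum T, Eomes and Mixl1 made 69.0 to 72.65% in Foxa2+ CM and 53.9 to 64.6% in Foxa2- CM, which do not overlap. Of the other genes in Foxa2- CM, Evx1 made 12.02 to 14.8% of the sum, Gsc 7.78 to 10.2%, Mesp1 6.24 to 11.6% and Lhx1 4.16 to 9.24%. In Foxa2+ CM the share of Mesp1 was 1.05 to 1.79% and that of Lhx1 1.66 to 3.66%, both below every Foxa2- CM sample, while Gsc, at 10.1 to 14.3%, and Evx1, at 10.4 to 13.1%, overlapped.

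Duplicate reads had been removed, so a gene can hold at most 2 counts per exonic base, 1 for each start and strand. Mixl1 reached 1.59 counts per base, T 1.44, Eomes 1.39 and Lhx1 1.28 in their highest samples. Differences in these genes may therefore be compressed, those between the CM groups included. The same holds for the order of genes per kb of exon and for their shares of the sum. Over the CM samples Eomes held 5053 to 5781 counts and Mixl1 3246 to 3651, while total counts on genes ran from 12616900 to 17470126. In each CM group the CPM of both genes was highest in the sample with the lowest total. The part of duplicate removal in this was not tested. Mesp1 reached 0.785 counts per base, Tbx6 0.174, Msgn1 0.0392 and Mesp2 0.0221.

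Setting Foxa2+ CM against Foxa2- CM asks how the factors differ with Foxa2 inside the same mesoderm gate. Of the 10 genes 9 were tested, with Msgn1 under the count filter. Mesp1, Mesp2 and Tbx6 were lower in Foxa2+ CM and none was higher, where called means an adjusted p under 0.05 and a change of at least 2-fold. Among all 15284 genes tested, 1.52% were called lower and 1.49% higher. Mesp1 fell by 3.10 on the log2 scale (SE 0.41, 8.57-fold, adjusted p = 0.00627). Mesp2 fell by 2.37 (SE 0.38, 5.17-fold, adjusted p = 0.0119) and Tbx6 fell by 1.14 (SE 0.25, 2.21-fold, adjusted p = 0.0354). All 3 were lower in every Foxa2+ CM sample than in any Foxa2- CM sample.

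Evx1 also passed the adjusted p (0.0227) but not the fold limit, with a log2 difference of -0.44 (SE 0.08). Lhx1 had a larger difference of -1.65 (SE 0.47) that did not pass, with an adjusted p of 0.0904. The early streak genes differed little, with T at 0.22 (SE 0.09, adjusted p = 0.243), Eomes at 0.03 (SE 0.14, adjusted p = 0.959) and Mixl1 at -0.14 (SE 0.13, adjusted p = 0.704). Gsc was at 0.26 (SE 0.26, adjusted p = 0.726). For 6 of the 9 tested genes the samples of the CM groups did not overlap, T, Evx1 and Lhx1 being those not called, against 24.0% of all tested genes. Msgn1, not tested, did not overlap either. The median log2 difference over the 9 genes was -0.44 and over all tested genes -0.00135. The genes of the set thus separate into Mesp1, Mesp2 and Tbx6, which were called, and T, Eomes, Mixl1 and Gsc, whose differences stayed within 1.20-fold. For T, Eomes and Mixl1 the removal of duplicates may have compressed these differences.

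Mesp1 remained called with each of the 6 CM samples left out in turn. Mesp2 was lost without Foxa2+ CM 1 (adjusted p = 0.0559), Foxa2+ CM 2 (0.0501) or Foxa2- CM 2 (0.0678). Tbx6 was lost without any sample but Foxa2- CM 3, with adjusted p-values of 0.0759 to 0.136. In 1 model of all 10 samples the differences were nearly the same, at -3.11, -2.38 and -1.15, and none of the 3 was called (adjusted p = 0.065, 0.0703 and 0.227). That model called 1.16% of all tested genes, against 3.01% in the fit of the 6 CM samples and 0.943 to 4.70% with a sample left out. Lhx1 was called without Foxa2- CM 3, at -2.02 (adjusted p = 0.00228), and with both samples numbered 3 left out, at -1.68. With all 6 samples and no filter on low counts it was called too, at -1.66 (adjusted p = 0.0225), so that its call turns on the samples and on the filter.

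**Figure D3:**
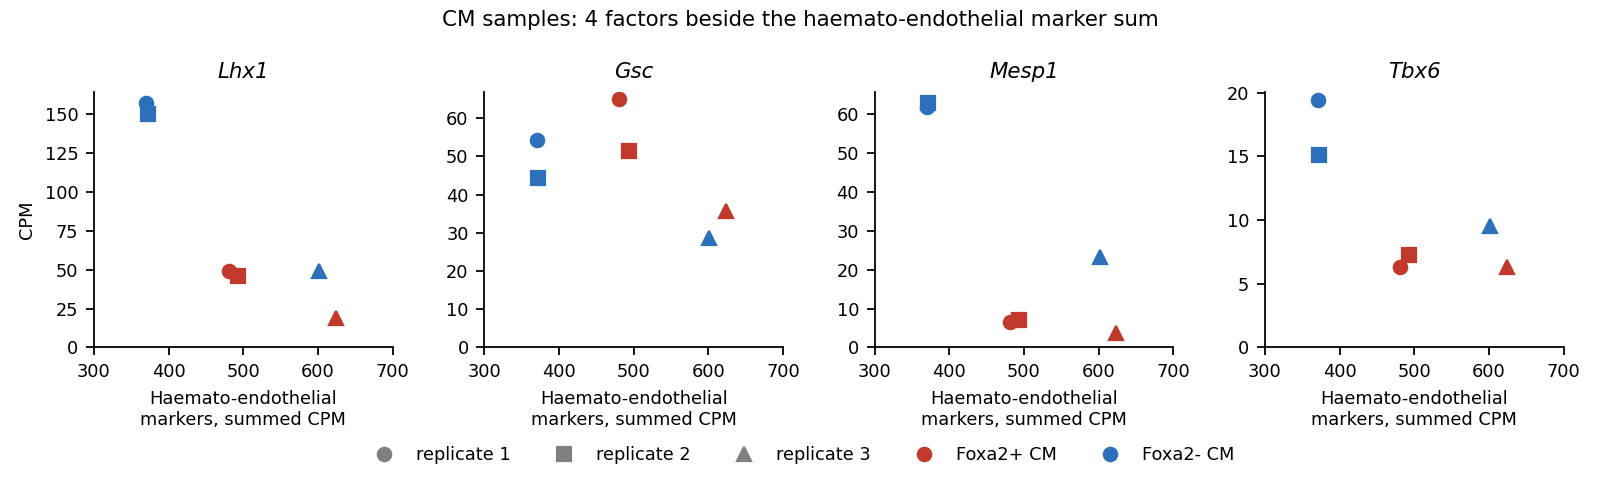
CPM of Lhx1, Gsc, Mesp1 and Tbx6 (vertical axes from 0) against the summed CPM of the 9 haemato-endothelial markers in the 6 CM samples. Samples numbered 3 (triangles) lie to the right, at 624 and 601 CPM, and are lowest in their group for Lhx1, Gsc and Mesp1.

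In both CM groups the sample with the highest haemato-endothelial marker sum had the lowest Lhx1, Gsc and Mesp1, as the plot of these markers shows. The samples of lowest sum were Foxa2- CM 1 and 2, which had the highest Mesp1, Lhx1 and Tbx6 of the CM samples. Endoderm markers, with Foxa2 itself among the 8, summed to 125 to 148 CPM in Foxa2+ CM and to 76.8 to 99.1 CPM in Foxa2- CM, with none at 0. Of the 8, Foxa2 and Sox17 were called higher in Foxa2+ CM and none lower. Foxa1 (-0.88), Epcam (-0.14) and Cer1 (-0.07) lay on the other side without being called. The part of haemato-endothelial or endoderm cells in the results was not tested. Without the samples numbered 3 the differences of Mesp1, Mesp2 and Tbx6 were called as well, in a fit of 2 samples against 2 that called 6.44% of all genes, where the fit of all 6 called 3.01%. Without Foxa2+ CM 3 alone, the library with little Foxa2, Mesp1 and Mesp2 were called and Tbx6 was not.

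**Figure D4:**
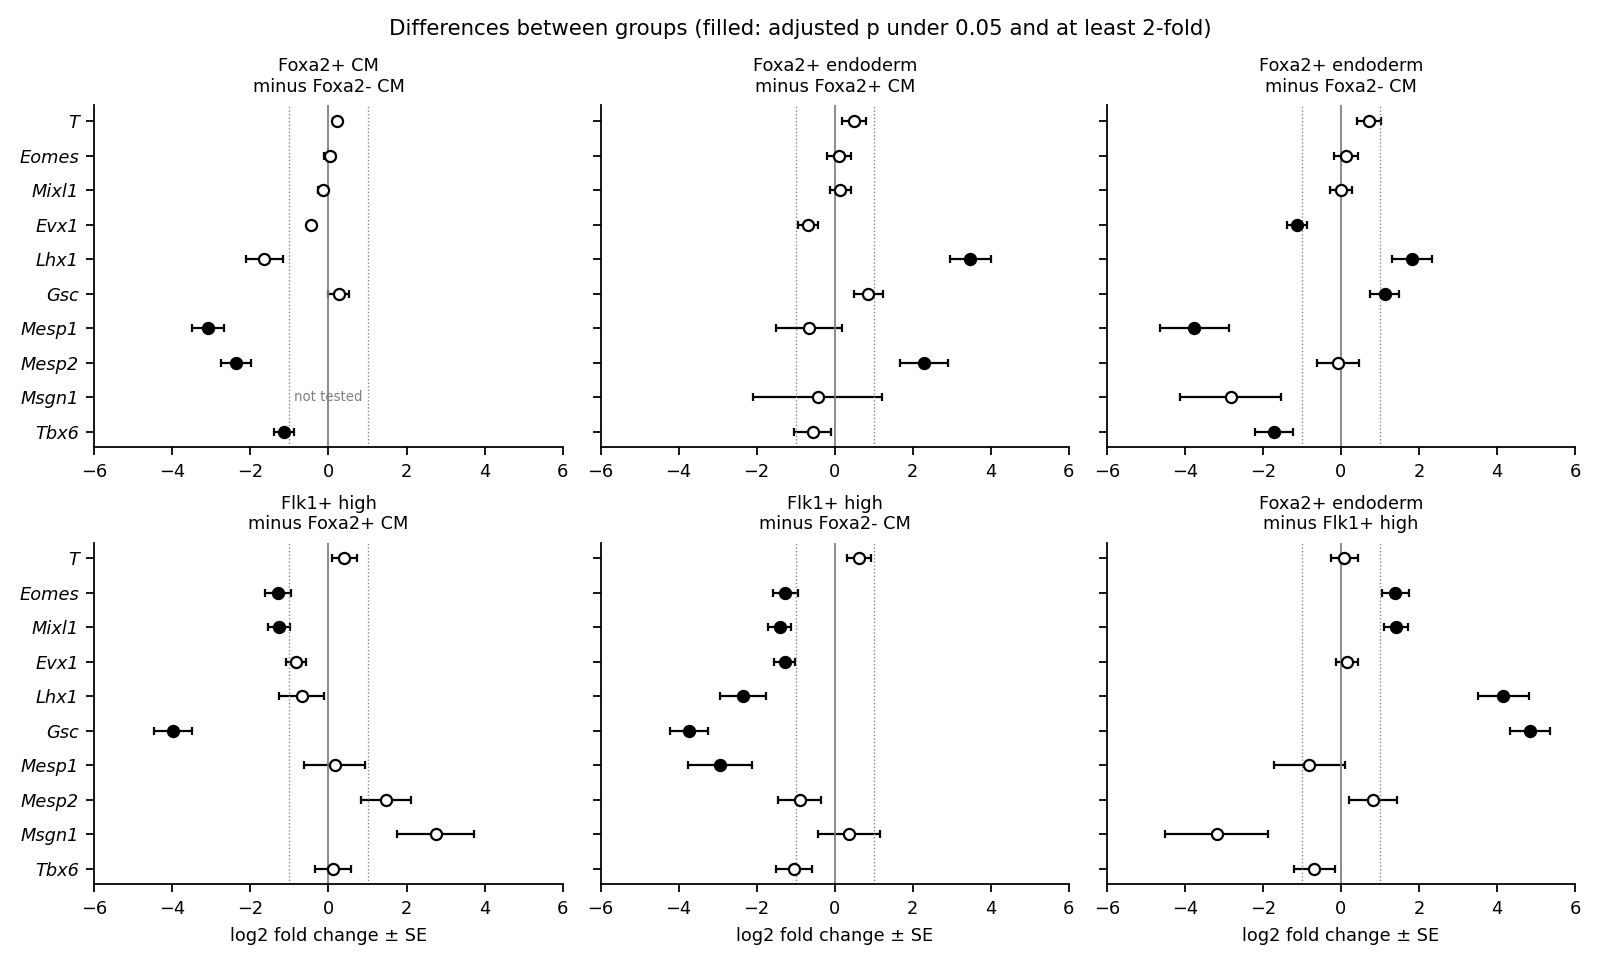
Log2 fold change ± SE of each factor in the 6 comparisons of groups, the first group named minus the second, with filled points for an adjusted p under 0.05 and at least 2-fold and dotted lines at 2-fold. Mesp1, Mesp2 and Tbx6 are filled on the left of the first panel, Lhx1 is filled on the right in all 3 panels with endoderm, and Gsc is filled in all panels except those of Foxa2+ CM minus Foxa2- CM and endoderm minus Foxa2+ CM.

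Endoderm was compared with each CM group, and these comparisons share the endoderm samples. Lhx1 rose in endoderm over Foxa2+ CM by 3.47 on the log2 scale (SE 0.53, 11.1-fold, adjusted p = 0.00098) and over Foxa2- CM by 1.82 (SE 0.50, 3.53-fold, adjusted p = 0.0231). Mesp2 rose over Foxa2+ CM by 2.29 (SE 0.62, adjusted p = 0.0174), from 4 to 9 counts to 33 and 10 counts. These 2 genes were the whole of the called set there, with 10.2% of 16180 genes called higher and 8.49% lower. Eomes and Mixl1 differed from Foxa2+ CM by 0.10 (SE 0.31) and 0.14 (SE 0.27), neither called. Gsc was higher in both endoderm samples than in any Foxa2+ CM sample, at 0.86 (SE 0.37, adjusted p = 0.0978).

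Against Foxa2- CM, endoderm had 2 factors called higher, Lhx1 and Gsc, and 3 called lower, Mesp1, Tbx6 and Evx1, where 9.18% and 7.81% of all genes were called. Gsc rose by 1.12 (SE 0.37, adjusted p = 0.0455). Mesp1 fell by 3.76 (SE 0.89, 13.6-fold, adjusted p = 0.0111), Tbx6 fell by 1.72 (SE 0.49, adjusted p = 0.0265) and Evx1 fell by 1.13 (SE 0.26, adjusted p = 0.0102). T at 0.71 (SE 0.31, adjusted p = 0.117), Msgn1 at -2.83 (SE 1.29, adjusted p = 0.13) and Mesp2 at -0.08 (SE 0.54) were not called. Epiblast or pluripotency markers summed to 1221 and 1150 CPM in endoderm, against 333 to 402 CPM in CM. Of the 8 markers, 5 were called higher and 1 lower in endoderm than in either CM group. Between the CM groups 1 of the 8 was called, Nanog, lower in Foxa2+ CM at -2.41 (SE 0.19, adjusted p = 0.00132). The part of these markers in the differences of the factors was not tested.

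Between endoderm and CM, only the Lhx1 difference from Foxa2+ CM was called with each sample left out. Mesp2 was lost without Foxa2+ CM 1 (adjusted p = 0.055), Foxa2+ CM 3 (0.0538), both samples numbered 3 (0.0522) or Endoderm 1 (log2 difference 1.05, 0.304). From Foxa2- CM, Gsc was lost without any 1 of the 5 samples (0.0514 to 0.195) and Tbx6 without any but Foxa2- CM 3 (0.051 to 0.162). Lhx1 was lost without Endoderm 1 (0.079) or Endoderm 2 (0.0882), Evx1 without Endoderm 1 (0.083) and Mesp1 without Endoderm 2 (0.0859).

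Flk1+ high mesoderm had 3 factors called lower than in Foxa2+ CM and 6 lower than in Foxa2- CM, and none called higher. The background was 6.25% lower and 5.17% higher for the first comparison and 6.40% lower and 5.24% higher for the second. Gsc fell by 3.98 (SE 0.49, 15.8-fold, adjusted p = 0.000737) from Foxa2+ CM, more than any other factor there, and fell by 3.72 (SE 0.48, 13.2-fold, adjusted p = 0.00102) from Foxa2- CM. Eomes fell by 1.29 (SE 0.32, adjusted p = 0.0194) and by 1.27 (SE 0.32, adjusted p = 0.0218), and Mixl1 fell by 1.27 (SE 0.29, adjusted p = 0.0126) and by 1.41 (SE 0.29, adjusted p = 0.00834). From Foxa2- CM alone, Evx1 fell by 1.29 (SE 0.26, adjusted p = 0.00807), Lhx1 fell by 2.34 (SE 0.59, adjusted p = 0.0199) and Mesp1 fell by 2.95 (SE 0.82, adjusted p = 0.0312).

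T, Tbx6 and Msgn1, on which the Flk1+ high samples disagreed, were not called in either comparison. T stood at 0.41 (SE 0.31, adjusted p = 0.39) over Foxa2+ CM and 0.62 (SE 0.31, adjusted p = 0.196) over Foxa2- CM. Tbx6 stood at 0.11 (SE 0.46) and -1.04 (SE 0.46). Msgn1 was at 2.75 (SE 0.99, adjusted p = 0.076) over Foxa2+ CM, a value set by 24 counts in Flk1+ high 1. That sample also had 67.4 CPM of Klf4, a pluripotency factor, against 6.85 CPM in Flk1+ high 2. Of the other epiblast or pluripotency markers, Pou5f1, Esrrb, Dnmt3b and Nanog were higher there as well, and Sox2, Zfp42 and Fgf5 lower. The endothelial genes Cdh5 (158 against 275 CPM), Pecam1 (46.6 against 138 CPM) and Tek (135 against 245 CPM) were lower in Flk1+ high 1. The other haemato-endothelial markers differed less, with Tal1 at 327.5 against 339 CPM and Gata1 at 58.2 against 50.9 CPM. The sample with more T, Mesp1, Tbx6 and Msgn1 was thus the one with less Cdh5, Pecam1 and Tek, and the part of such cells in the results was not tested.

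Gsc was called in both comparisons with each sample left out. Without Flk1+ high 1, Eomes fell under 2-fold (-0.77 and -0.74) and so did Mixl1 (-0.79 and -0.93), while Evx1 was called against Foxa2+ CM at -1.46 and Tbx6 against Foxa2- CM at -2.08. Without Flk1+ high 2, Evx1 fell under 2-fold (-0.88), Lhx1 (adjusted p = 0.102) and Mesp1 (0.065) were lost, T was called against Foxa2- CM at 1.14 and Msgn1 against Foxa2+ CM at 3.51. Eomes was lost without Foxa2+ CM 1 (0.058), Foxa2- CM 1 (0.0555) or Foxa2- CM 2 (0.0649). Lhx1 and Mesp1 were lost without Foxa2- CM 1 (0.0576 and 0.085) or Foxa2- CM 2 (0.0546 and 0.0828), and Lhx1 was called against Foxa2+ CM without both samples numbered 3, at -1.04.

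Endoderm and Flk1+ high were the groups furthest apart for the anterior genes. Both Gsc and Lhx1 were called with each sample left out. Gsc was 28.7-fold higher in endoderm (log2 difference 4.84, SE 0.51, adjusted p = 0.000141) and Lhx1 17.9-fold higher (4.16, SE 0.65, adjusted p = 0.00117). Eomes and Mixl1 were higher by 1.40 (SE 0.35, adjusted p = 0.0127) and 1.41 (SE 0.31, adjusted p = 0.00688). These 4 genes were called higher and none lower, with 11% and 8.11% of all genes called. T, at 0.09 (SE 0.345), and Evx1, at 0.15 (SE 0.28), overlapped between these groups. Without Flk1+ high 1, Eomes and Mixl1 fell under 2-fold, at 0.87 and 0.93, Eomes was lost without Endoderm 1 (adjusted p = 0.064), and Msgn1 was called without Flk1+ high 2, at -3.98.

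Genes that act around the streak were counted in 4 lists, with the CM groups compared first. The lists were chosen with earlier results of these data known, so their counts are a description and not a test. Among 13 streak signals and regulators none was called higher and 2 lower in Foxa2+ CM, with a median of -0.42. The called pair was Lefty2, an inhibitor of Nodal, at -1.20 (SE 0.23, adjusted p = 0.0235), and Fgf4, a growth factor, at -1.95 (SE 0.43, adjusted p = 0.0367). Nodal itself was at 0.31 (SE 0.09, adjusted p = 0.0999), Wnt3 at -0.01 (SE 0.08) and Bmp4 at 0.02 (SE 0.08). Of 12 organizer and anterior mesendoderm genes 10 were tested and 2 called higher, Foxa2, on which the cells were sorted, at 3.17 (SE 0.69, adjusted p = 0.0353), and Sox17, an endoderm factor, at 2.09 (SE 0.33, adjusted p = 0.0118). Chrd and Cer1, secreted inhibitors made by the organizer and anterior endoderm, stayed between 0.365 and 3.44 CPM in CM.

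Presomitic and posterior mesoderm genes had 6 of 13 tested called lower in Foxa2+ CM, none higher, and a median of -1.13, where 1.52% of all tested genes were called lower and 1.49% higher. The caudal factors Cdx2 and Cdx1 fell by 3.05 (SE 0.52, adjusted p = 0.0149) and by 2.75 (SE 0.43, adjusted p = 0.0116). The Notch ligands Dll1 and Dll3 fell by 1.90 (SE 0.23, adjusted p = 0.00498) and by 1.89 (SE 0.42, adjusted p = 0.0372), Pcdh8 fell by 2.21 (SE 0.52, adjusted p = 0.0461) and Foxc1 fell by 1.86 (SE 0.33, adjusted p = 0.0176). Pcdh8, Dll3 and Dll1 are not particular to Foxa2- CM. They averaged 109.6, 38.2 and 8.52 CPM in endoderm, against 4.60, 20.5 and 4.05 CPM in Foxa2- CM. Cdx2 stood at 2.63, 4.34 and 13.3 CPM in Foxa2+ CM and at 40.8, 52.7 and 77.1 CPM in Foxa2- CM. Unlike Mesp1, it was highest in the sample numbered 3 of each group. Meox1 (1.12, SE 0.33) and Hes7 (0.87, SE 0.35) lay on the other side without being called. Of 11 T-box relatives 8 were tested, with Tbx5 called higher at 1.76 (SE 0.37, adjusted p = 0.0331) and Tbx4 called lower at -3.52 (SE 0.55, adjusted p = 0.0114), while Tbx3, abundant in both groups, was at 0.05 (SE 0.09). Foxa2+ CM was thus lower in Tbx6 and Tbx4 and higher in Tbx5 within the T-box family, with T and Eomes not called.

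These list calls were tried on other samples too, a choice made after seeing the data. In 1 model of all 10 samples Foxa2, Sox17, Cdx1, Cdx2, Foxc1 and Tbx4 were called, while Lefty2 (adjusted p = 0.171), Fgf4 (0.203), Dll1 (0.0543), Dll3 (0.159), Pcdh8 (0.136) and Tbx5 (0.0952) were lost. All 12 were called without the samples numbered 3, where the presomitic list had 7 genes called lower and 2 called higher. Dll3 stood at 29.7, 23.6 and 8.23 CPM in Foxa2- CM and Pcdh8 at 6.18, 6.03 and 1.58 CPM, the sample numbered 3 being the lowest for both, as for Mesp1. With any 1 CM sample left out, the presomitic list had 1 to 7 genes called lower and the streak signals 0 to 5. Without Foxa2- CM 3 the presomitic list also had 1 gene called higher. Among the fits with 1 CM sample left out, Foxa2 itself was called only without Foxa2+ CM 3 or Foxa2- CM 3.

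**Figure D5:**
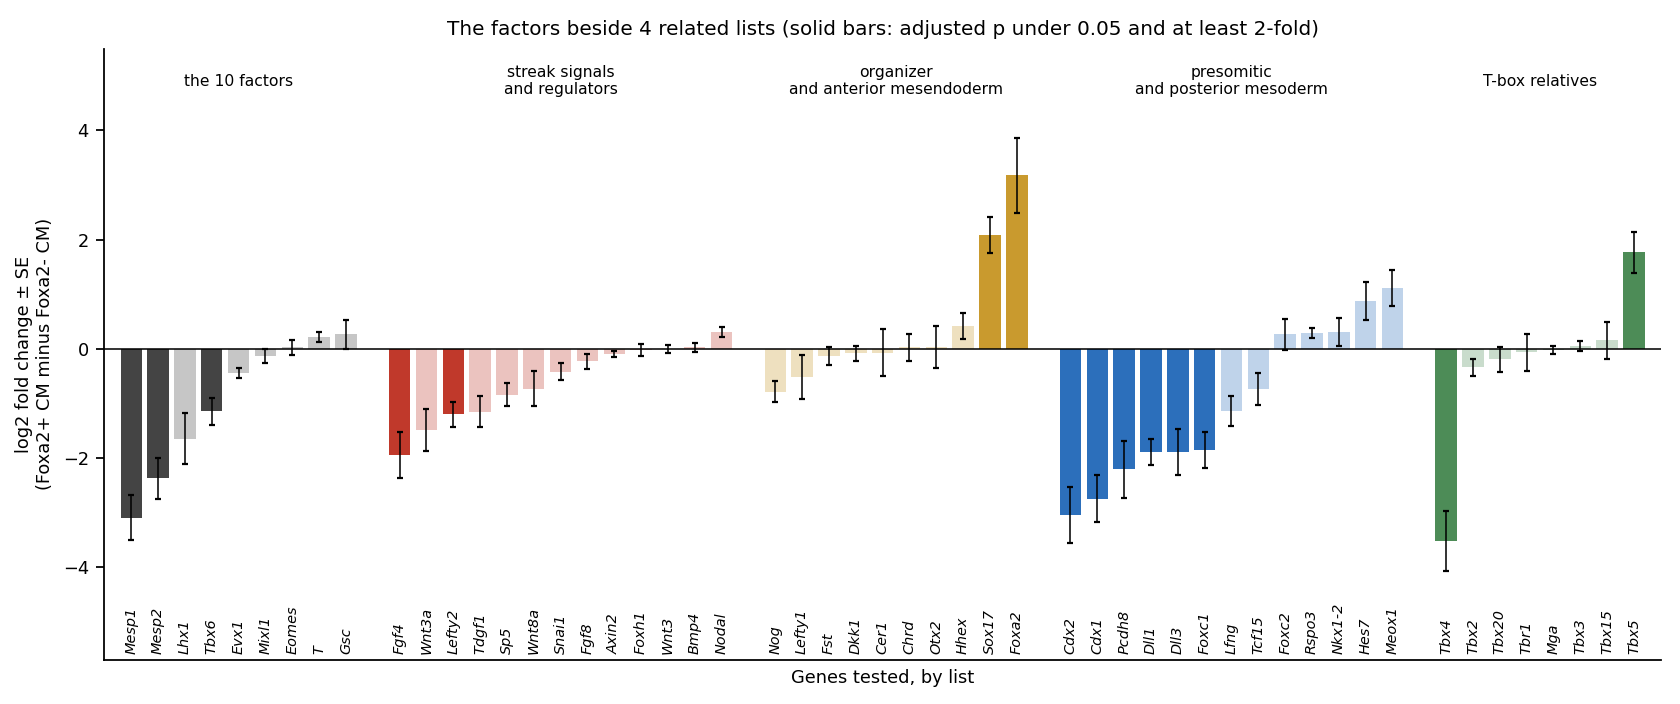
Log2 fold change ± SE between Foxa2+ CM and Foxa2- CM for the tested factors and the tested genes of 4 related lists, sorted within each list, with solid bars for an adjusted p under 0.05 and at least 2-fold. The called genes of the streak signal list and of the presomitic list all point down, as do the 3 called factors, and the called organizer genes Foxa2 and Sox17 point up.

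In endoderm the organizer list moved with Lhx1. Of its 11 tested genes 9 were called higher than in Foxa2+ CM and 9 than in Foxa2- CM, with medians of 2.68 and 4.67, and Nog was called lower in both. Cer1, with 226.5 and 231 CPM, and Chrd, with 250.4 and 197 CPM, were the clearest examples. Of 13 streak signals 7 were called higher and 1 lower than in Foxa2+ CM, the latter Bmp4, at -4.93 (adjusted p = 5.6e-07), a growth factor that was also given as protein to the CM cultures. Wnt8a rose by 5.21, Lefty2 by 3.67 and Fgf8 by 1.79. T-box relatives went the other way, with 5 of 8 tested called lower than in either CM group and none higher, among them Tbx2, Tbx3, Tbx5 and Tbx20, genes used in heart development. The presomitic list was mixed, with 6 of 14 tested called higher and 5 lower than in Foxa2+ CM. Against Foxa2- CM, 2 were called higher and 6 lower. Without the samples numbered 3 the organizer counts were the same, and 5 and 3 T-box relatives were called lower.

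In Flk1+ high, 4 of 13 streak signals were called lower than in Foxa2+ CM and 1 higher, and 6 lower than in Foxa2- CM. Fgf8 fell by 3.18 and fell by 3.41, and Snai1, a driver of the passage through the streak, fell by 1.72 and fell by 2.14. Nodal was at 1.06 CPM in Flk1+ high 1 and 23.7 CPM in Flk1+ high 2, split in the same direction as Eomes, Mixl1 and Gsc. The presomitic list had 4 of 14 tested genes called higher and 2 lower than in Foxa2+ CM, and 2 higher and 4 lower than in Foxa2- CM. The organizer list had 6 of 11 tested genes called lower and 2 higher than in Foxa2+ CM, and 5 lower and 4 higher than in Foxa2- CM. The 2 organizer genes higher than in Foxa2+ CM were Hhex, which is also a gene of blood and vessel precursors, at 1.96, and Cer1, at 1.63 from at most 1.30 CPM in Foxa2+ CM, and Sox17 (2.06) and Foxj1 (1.97) joined them against Foxa2- CM. Fgf8, Snai1 and Hhex were called in both comparisons without either Flk1+ high sample. Cer1 was lost without Flk1+ high 1, as was Foxj1, then at 0.50 (adjusted p = 0.605).

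Over all 10 samples, Eomes and Mixl1 had the most similar patterns of any pair in the set (Pearson r of 0.993 on log2(CPM + 1)), and both resembled Gsc (0.929 and 0.932). Mesp1 was most like Tbx6 (0.961) and then Evx1 (0.799). T was unlike Eomes and Mixl1 (-0.401 and -0.416). These values describe points that share libraries, groups of 2 or 3 and depth, so no p is given. Eomes and Mixl1 are also among the genes that duplicate removal may have compressed, and both were lowest in the Flk1+ high samples. Outside the set, Pmepa1, a target and inhibitor of TGF-beta signalling, was nearest to Eomes (0.971) and Mixl1 (0.966), with mean levels of 110.2, 108 and 137 CPM in Foxa2+ CM, Foxa2- CM and endoderm and 23.1 CPM in Flk1+ high. Ube2h and Pdgfrl completed the 3 nearest genes of both.

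Lhx1 was nearest to Kdf1 (0.979), Syn1 (0.976) and Pou5f1 (0.975), the pluripotency factor, which averaged 30.9 CPM in Foxa2+ CM, 52.5 CPM in Foxa2- CM, 112 CPM in endoderm and 30.7 CPM in Flk1+ high. Gsc was nearest to Chmp4c (0.986), Mtmr11 (0.982) and Tuba8 (0.973). Mesp1 and Tbx6 both had Lhx2, a LIM homeobox gene, among their 3 nearest (0.951 and 0.936), averaging 0.948 CPM in Foxa2+ CM but 3.55 CPM in Foxa2- CM. Outside the set, Gpat3 (0.955) was the gene most like Mesp1. For Evx1 the overlapping Evx1os was 1 of the 3 nearest (0.976), with Lrfn4 (0.982) and Ntm (0.971), and its reads cannot be told apart from those of Evx1 where they overlap. T was nearest to Cnksr3 (0.972), Mesp2 to Wdyhv1 (0.968) and Msgn1, at few counts, to Meis1 (0.928).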

How the data were processed

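RNAseq was analysed for 10 samples, grouped by their labels into Foxa2+ CM (3), Foxa2- CM (3), Foxa2+ endoderm (2) and Flk1+ high mesoderm (2). The authors aligned 50 nt single-end reads from TruSeq v2 libraries to mm10 with STAR (2.5.0a), removed duplicates with Picard and counted with HTSeq (0.6.0). They deposited whole-number counts per gene, not normalized. Between 19.5 and 27.8% of reads lay on no gene or were ambiguous, and these tallies were left out.

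Counts were normalized by TMM and filtered with filterByExpr at its defaults in edgeR 4.0.16 (R 4.3.3). Groups were compared with the quasi-likelihood test of edgeR, with p-values adjusted by Benjamini-Hochberg over all tested genes, in the 6 CM samples for the CM comparison and in 1 model of all 10 samples for the other 5. SE is the absolute log2 fold change over the square root of F. Levels are CPM, also per kb of GENCODE M21 exon, which matched 37607 of 38924 identifiers. The floor of 3 counts covers counting error only. The genes named are the 10 factors, the 3 genes nearest to each by Pearson r of log2(CPM + 1) out of genes averaging 1 CPM or more, and members of fixed lists. The 10 factors and the lists were chosen with earlier results of these data known. DESeq2 1.42.0, other size factors, no filter, no fold limit, a replicate block, other sample sets and leaving out each sample were tried. The tests were checked on simulated counts. No 2 samples agreed within sampling noise. Figures were drawn with matplotlib 3.10.9 and pandas 2.3.3.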

Additional observations from a re-analysis of the deposited data

How the results depend on the processing

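DESeq2 and RLE size factors gave the same number of called factors as the main fits in all 6 comparisons. For Foxa2+ CM against Foxa2- CM the number was 3 in the main fit, 0 in 1 model of all 10 samples, 4 with no filter or no fold limit, and 1 to 4 with a sample left out. Of all tested genes, the main fit called 3.01%, the model of all 10 samples 1.16% and the fits with a sample left out 0.943 to 4.70%. With samples left out it ran from 1 to 2 for endoderm against Foxa2+ CM, 1 to 4 against Foxa2- CM, 2 to 4 for Flk1+ high against Foxa2+ CM, 3 to 6 against Foxa2- CM, and 2 to 5 for endoderm against Flk1+ high. A lone sample left in a group is then assumed to vary like the other groups. With a CM sample left out, 16.6 to 17.2% of all tested genes were called for endoderm against Foxa2+ CM. The share was 15.1 to 15.9% against Foxa2- CM. For Flk1+ high it was 8.68 to 10.6% against Foxa2+ CM and 8.95 to 11.8% against Foxa2- CM. Without the samples numbered 3, an alternative chosen after seeing the data, endoderm against Foxa2+ CM had 1, where 17.8% of all tested genes were called. With only the groups compared in the fit, Flk1+ high against Foxa2- CM had 3 and endoderm against Flk1+ high had 2. The cause of these changes was not tested, beyond the fewer samples of those fits. The share of all genes called was not taken for DESeq2, RLE, no filter, no fold limit or only the groups compared.

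The replicate number as a block gave 4 called factors for Foxa2+ CM against Foxa2- CM (Lhx1 added), 2 and 4 for endoderm against Foxa2+ and Foxa2- CM, 4 and 6 for Flk1+ high against them, and 4 for endoderm against Flk1+ high. The share of all genes called was not taken for the block either, so these counts have no background beside them. Same-numbered CM samples deviated together with correlations of 0.534, 0.0961 and 0.628, against -0.61 to 0.363 for samples of unlike number. The labels do not state that equal numbers are pairs, so the block was kept as an alternative.

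No called difference changed its sign. Signs changed only among factors not called, 32 times of 634 values. The list counts on other samples in the report were likewise chosen after seeing the data. For Mixl1 in endoderm against Foxa2- CM, the value was -0.0032 with RLE factors, -0.018 with no filter, -0.074 with the block, -0.0028 with only those groups, -0.11 without the samples numbered 3 and -0.11 to 0.10 with a sample left out. For Eomes it was -0.0045 in Foxa2+ CM against Foxa2- CM without the samples numbered 3. Against Foxa2+ CM, Flk1+ high had Mesp1 at -0.49 and Tbx6 at -0.21 with the block and Mesp1 at -0.10 without the samples numbered 3. With a sample left out, Eomes ran from -0.088 to 0.15 between the CM groups, from -0.045 to 0.19 in endoderm against Foxa2+ CM and from -0.0096 to 0.22 against Foxa2- CM, Msgn1 from -3.97 to 0.39 in endoderm against Foxa2+ CM, and Mesp2 from -1.31 to 0.58 in endoderm against Foxa2- CM. In Flk1+ high against Foxa2+ CM, Mesp1 ran from -2.36 to 0.97, T from -0.44 to 0.91 and Tbx6 from -0.93 to 0.67, and against Foxa2- CM T ran from -0.23 to 1.14 and Msgn1 from -2.04 to 1.13. In endoderm against Flk1+ high, T ran from -0.44 to 0.94, Mesp2 from -0.40 to 1.49, Evx1 from -0.27 to 0.77, Mesp1 from -1.73 to 1.71 and Tbx6 from -1.26 to 0.36. Raw CPM in place of the TMM scale left all 40 group levels per kb within 1 SD. Spearman's rho shared 4 of the 30 nearest genes with Pearson's r, so that those names depend on the measure. Groups of 2 samples and the counts of Mesp2 and Msgn1 limit what can be called.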
